A study of Rattus norvegicus with 154 samples.

Results

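Transcripts of heart muscle were followed in rat lung after sulfur mustard, an alkylating agent that damages DNA. The genes, chosen with earlier results of these data known, were Myh6, Myl7, Tnnt2, Tnni3, Actc1 and Nppa. Every probe set of the array (a set of oligonucleotides that measures 1 transcript) was taken whose table entry named 1 of these genes alone. This step made no use of measured values. There were 7 such probe sets of 15866 that were not array controls. They covered 5 of the 6 genes, out of 10411 genes that had a probe set of their own, because all 3 probe sets that name Actc1 also name Acta2, the smooth muscle actin. One more shared probe set names both Myh7 and Myh6. Of the 7, 5 were bright enough to be tested, 1 each for Myh6, Myl7, Tnnt2, Tnni3 and Nppa, and the 4 shared probe sets are described apart from them. The second Myh6 probe set averaged an intensity of 10.4 and the second Tnnt2 probe set 25.6 over all animals, both below the lowest mean kept for testing, 36.1.

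In rats and mice the muscle coat of the large veins that return blood from the lung to the left atrium is made of cardiac muscle cells, and it reaches along the veins into the lung. These cells contract with the atrium and carry the contractile proteins of atrial muscle. Myh6 encodes alpha myosin heavy chain, the motor of the thick filament, and Myl7 the atrial regulatory myosin light chain. Tnnt2 and Tnni3 encode cardiac troponin T and troponin I, which hold the calcium switch on the thin filament, and Actc1 encodes cardiac actin, the filament itself. Nppa encodes atrial natriuretic peptide, a hormone that atrial muscle cells store in granules and release when stretched.

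Total RNA of the lungs of 77 rats had been hybridised, each on 2 chips called A and B, which gives 154 arrays in 25 groups. Saline alone, isopropyl alcohol alone, and 1, 3 or 6 mg of sulfur mustard in isopropyl alcohol were each sampled after 30 min and after 1, 3, 6 and 24 h. There were 3 animals in 23 groups, and 4 animals in the 6 mg groups at 30 min and 1 h. The labels used here give no strain, sex, age, route of exposure or way of dissecting the lung, so how much vein each piece of tissue held is not known. In bulk tissue, fewer muscle cells and less RNA per muscle cell cannot be told apart.

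Values are the deposited linear intensities, averaged over the 2 chips of an animal. The authors' scaling gave each array a trimmed mean of 150, with array medians from 67.7 to 100.1. Lung epithelial transcripts were bright in every animal: Sftpc, a surfactant protein gene of alveolar type II cells, lay between 4005 and 17055, and Scgb1a1, the club cell secretory protein gene, between 3300 and 14999. Arrays were scanned on 17 days, and the days of chips A and B form 12 pairs of scan days, which are used below to ask whether a relation holds within a scan batch. Intensities of different probe sets are not compared with each other.

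Windows at annotated starts of the members are shown first, and whether their motifs bear on the results below was not tested. Windows of 300 bases, 250 before and 50 after an annotated start, came from RefSeq on GRCr8, and all 6 genes matched, with 7 windows because Tnnt2 has 2. Motifs were searched on both strands: the CArG box and the MEF2 box, which bind muscle transcription factors, AGATAA and TGATAA, a core bound by GATA factors, and TATAAA, the TATA box. No matches of different motifs overlapped. The 3 windows of tested genes that held a match are printed 5′ to 3′ along the gene, with the matches in capitals.
Tnnt2, chr13:49818873-49819172, plus strand: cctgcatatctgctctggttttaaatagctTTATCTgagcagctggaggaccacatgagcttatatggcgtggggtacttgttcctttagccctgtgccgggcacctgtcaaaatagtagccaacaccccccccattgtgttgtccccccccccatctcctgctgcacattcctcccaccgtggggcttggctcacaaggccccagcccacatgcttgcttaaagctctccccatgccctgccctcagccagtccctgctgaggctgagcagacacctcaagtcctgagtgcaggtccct
Tnni3, chr1:78342321-78342620, plus strand: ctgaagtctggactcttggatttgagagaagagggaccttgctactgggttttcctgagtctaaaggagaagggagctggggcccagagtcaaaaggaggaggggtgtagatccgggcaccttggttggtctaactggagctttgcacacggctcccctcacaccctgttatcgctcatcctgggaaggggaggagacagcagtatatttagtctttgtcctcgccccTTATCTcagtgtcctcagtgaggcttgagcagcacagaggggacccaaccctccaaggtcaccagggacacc
Nppa, chr5:163711934-163712233, plus strand: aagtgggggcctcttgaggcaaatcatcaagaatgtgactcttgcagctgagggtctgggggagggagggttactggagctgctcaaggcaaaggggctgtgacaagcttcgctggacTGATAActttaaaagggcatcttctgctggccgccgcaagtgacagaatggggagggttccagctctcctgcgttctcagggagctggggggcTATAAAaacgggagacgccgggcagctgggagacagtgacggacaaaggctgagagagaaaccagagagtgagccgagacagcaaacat
In the Tnnt2 and Tnni3 windows the capitals are AGATAA read on the other strand, at 220 to 215 and 22 to 17 bases before the start. In the Nppa window they are TGATAA at 132 to 127 and TATAAA at 39 to 34 bases before the start. The CArG box was found once, in the window of Actc1, and no member window held a MEF2 box. None of the 5 motifs was found in the windows of Myh6 and Myl7, nor in the second window of Tnnt2. All these windows lie inside the genes as RefSeq draws them (Myh6 at chr15:32388102-32413663, Myl7 at chr14:84994644-84997173, Tnnt2 at chr13:49819123-49837125). They need not be the promoters of the main transcripts, so missing motifs there say little about these genes. Of all 33469 windows, 11.6% held AGATAA, 9.03% TGATAA, 14.2% TATAAA, 1.64% a CArG box and 3.29% a MEF2 box. None of the 5 motifs was found in the windows of all members, and a match describes letters in a window, not a site in use.

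All 5 tested genes varied several-fold between animals. Nppa lay below 36.1, the lowest mean kept for testing, in 8 of the 77 animals, and the other 4 genes in none. Myh6 lay at 146 in the lowest animal, 383 in the median animal and 572 in the highest, a 3.92-fold range. The lowest was replicate 1 of 6 mg at 24 h and the highest was replicate 2 of saline at 24 h, so both ends came from the same time. Myl7 lay between 247 (replicate 3 of 1 mg at 6 h) and 816 (replicate 1 of 6 mg at 3 h), with a median of 486 and a 3.31-fold range. On the thin filament, Tnnt2 lay between 46.9 and 164, with a median of 94.3 and a 3.49-fold range. Tnni3 had a median of 98.7, from 46.6 in replicate 3 of isopropyl alcohol at 24 h to 183 in replicate 1 of 6 mg at 6 h. The hormone gene Nppa had the widest range of the 5, 9.92-fold, with 20.8 in replicate 2 of 1 mg at 3 h, a median of 55.1 and 206 in replicate 3 of isopropyl alcohol at 30 min. High and low animals of a gene came from saline, isopropyl alcohol and sulfur mustard groups alike.

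**Figure D1:**
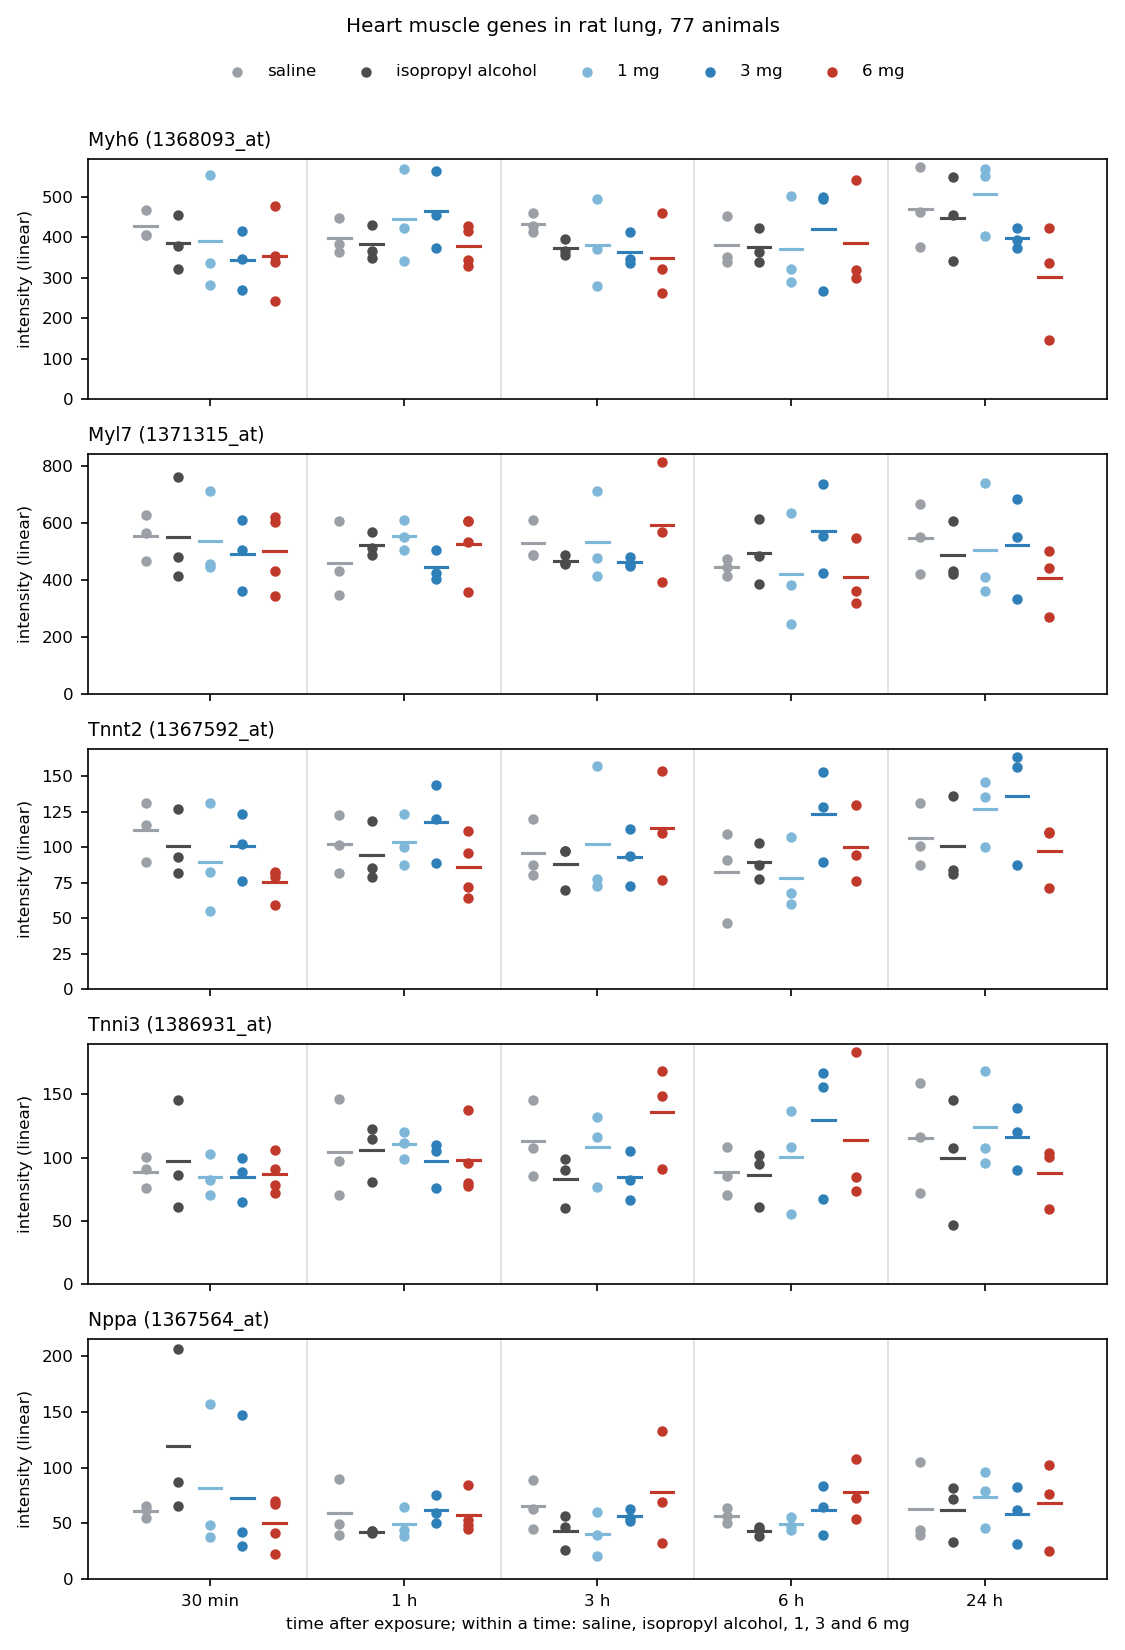
Intensity (linear scale, mean of both chips) of the 5 tested heart muscle genes in each of 77 animals, by time after exposure and, within a time, by saline, isopropyl alcohol, 1, 3 and 6 mg; points are animals and bars are group means. Animals of different doses mostly overlap within a time, and the lowest Myh6 point, 146, is replicate 1 of 6 mg at 24 h.

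By dose, with the 5 times put together, the levels of each gene lay close. Myh6 averaged 422 ± 59.0 in saline animals, 392 ± 59.8 with isopropyl alcohol, 419 ± 111 with 1 mg, 398 ± 82.3 with 3 mg and 355 ± 95.3 with 6 mg (SD, 15 animals each and 17 at 6 mg). Myl7 averaged 507 ± 93.3, 505 ± 97.5, 512 ± 146, 499 ± 113 and 491 ± 142 in the same order of groups. The means of Myl7 thus lay closer together than 1 SD of any dose. Tnnt2 averaged 99.8 ± 22.7 with saline, 94.6 ± 19.3 with isopropyl alcohol, 100 ± 32.2 with 1 mg, 114 ± 30.1 with 3 mg and 92.8 ± 25.2 with 6 mg. Tnni3 averaged 102 ± 28.8 with saline, 94.5 ± 30.1 with isopropyl alcohol, 106 ± 28.5 with 1 mg, 103 ± 31.8 with 3 mg and 103 ± 35.5 with 6 mg. Nppa averaged 61.1 ± 19.6 with saline, 62.1 ± 43.6 with isopropyl alcohol, 58.8 ± 32.8 with 1 mg, 62.4 ± 28.6 with 3 mg and 65.0 ± 30.0 with 6 mg.

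By time, with the doses put together, levels lay close as well. In order of time, from 30 min to 24 h, Nppa averaged 75.4 ± 51.1, 54.3 ± 16.1, 56.7 ± 27.4, 58.0 ± 18.5 and 65.1 ± 26.9 (SD, 16 animals at 30 min and 1 h and 15 at later times). Myh6 averaged 378 ± 83.5, 411 ± 72.2, 380 ± 66.2, 386 ± 89.8 and 425 ± 112 at those times. Tnnt2 means lay between 94.4 (30 min) and 114 (24 h), Tnni3 means between 88.4 (30 min) and 109 (24 h), and Myl7 means between 469 (6 h) and 526 (30 min). For all 5 genes the means of the times spanned less than the largest SD of a time.

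When the 25 group means were put in order on the log2 scale, neighbours rarely lay apart. The means of Myl7 spanned 0.53 log2 units from 1 mg at 6 h to 6 mg at 3 h, those of Tnni3 0.65 from isopropyl alcohol at 3 h to 6 mg at 3 h, and those of Tnnt2 0.78 from 6 mg at 30 min to 3 mg at 24 h. The Nppa means spanned 1.46 from 1 mg at 3 h to isopropyl alcohol at 30 min. For these 4 genes no gap between neighbours exceeded the standard error of a difference between 2 groups of 3 animals. Nppa came nearest, with a largest gap of 0.4832 against a standard error of 0.4835. The Myh6 means spanned 0.85 from 6 mg at 24 h to 1 mg at 24 h, with 1 gap above the standard error. There 6 mg at 24 h lay 0.29 below the next group, 3 mg at 30 min, against a standard error of 0.27. Neighbours among 25 ordered means lie close in any case, so small gaps do not show that the groups are alike.

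The spread between animals of 1 group was wide for all 5 genes, and for Myl7 and Myh6 little of it came from the chips. Spread was measured as the SD of log2(intensity + 7) within groups. It was 0.37 for Myl7, 0.34 for Myh6, 0.36 for Tnnt2, 0.43 for Tnni3 and 0.59 for Nppa, against a median of 0.22 over the 11106 probe sets tested. These SDs stood between the 85.0th percentile (Myh6) and the 98.0th percentile (Nppa) of all tested. The SD between the 2 chips of an animal was 0.10 for Myl7 and 0.12 for Myh6, but 0.29 for Tnnt2, 0.26 for Tnni3 and 0.45 for Nppa, with a median of 0.17 over all tested. The deviations from the group mean on chip A and chip B correlated with r = 0.94 for Myl7 (rho 0.94, permutation p = 1e-05, n = 77) and 0.89 for Myh6 (rho 0.87, p = 1e-05), where 1e-05 is the smallest p the permutations can give. For Tnni3 r was 0.75 (rho 0.78, p = 1e-05), for Nppa 0.54 (rho 0.50, p = 0.0004) and for Tnnt2 0.52 (rho 0.57, p = 6e-05). Over these 5 tests the adjusted p values lay between 1.7e-05 and 4e-04, and without the 2 farthest animals r lay between 0.47 (Nppa) and 0.93 (Myl7). The precision of an animal's value is therefore high for Myl7 and Myh6 and lower for Tnnt2 and Nppa.

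**Figure D2:**
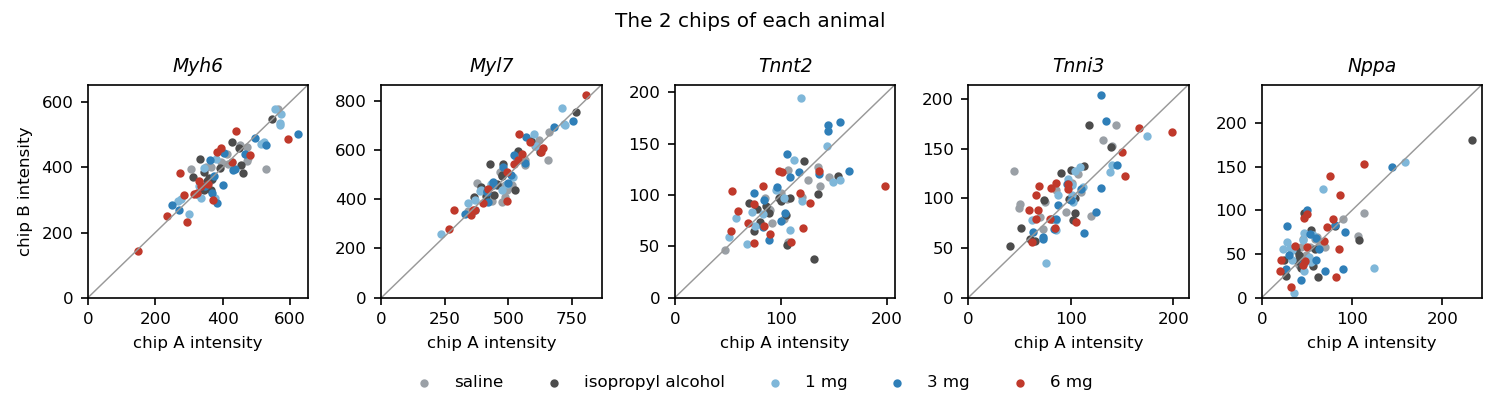
Intensity on chip B against intensity on chip A of the same animal (linear scale) for 5 genes in 77 animals, coloured by dose, with the line of equal values. Points lie along the line for Myl7 (r of deviations 0.94) and Myh6 (0.89) and scatter widely for Tnnt2 (0.52) and Nppa (0.54).

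The 5 genes rose and fell together from animal to animal within groups. Each animal's log2 value was taken as its deviation from the mean of its own group, so that dose and time drop out, and all 10 pairs of genes were correlated over the 77 animals. Every pair was positive, with r from 0.38 to 0.74 and a median of 0.64, and rho from 0.35 to 0.76. Myl7 with Tnni3 had r = 0.74 (rho 0.76) and Myl7 with Myh6 r = 0.72 (rho 0.70), with a permutation p of 1e-05 and an adjusted p over the 10 pairs of 2e-05 for both. Tnnt2 with Nppa, the 2 genes with the least precise values, had r = 0.38 (rho 0.35, permutation p = 0.0079, adjusted p = 0.0079). All 10 pairs passed the threshold of 0.05, and without the 2 animals farthest from the median r lay between 0.37 and 0.72.

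Values of 1 animal share their arrays, so each gene on chip A was also set against the other gene on chip B. The median r was then 0.56 over the 10 pairs (0.24 to 0.70). The relation was also seen within scan batches: in the 5 pairs of scan days with 6 or more animals (8, 12, 16, 9 and 13 animals) the median r was 0.74, 0.67, 0.81, 0.50 and 0.67, and all 10 gene pairs were positive in each. The 7 other pairs of scan days held 1 to 4 animals, too few for a value. In the 30 saline and isopropyl alcohol animals the median r was 0.41 (0.06 to 0.70), and in the 47 sulfur mustard animals it was 0.75 (0.52 to 0.82). The difference between these medians was not tested. Within the 30 saline and isopropyl alcohol animals alone, no pair but Myl7 with Tnni3 passed after adjustment. Myh6 with Myl7 had r = 0.57 there (permutation adjusted p = 0.0882) and Tnnt2 with Nppa had r = 0.06 (adjusted p = 0.797).

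The 5 genes often stood high or low together in 1 animal. In 16 animals all 5 genes were above their group mean, and in 15 animals none was, while 8 animals had 2 and 8 had 3 above. Replicate 2 of 1 mg at 30 min had the highest mean deviation, 0.60, with 0.55 for Myh6, 0.43 for Myl7, 0.59 for Tnnt2, 0.27 for Tnni3 and 1.14 for Nppa. Replicate 1 of 6 mg at 24 h had the lowest, -0.66, with -0.89 for Myh6, -0.52 for Myl7, -0.39 for Tnnt2, -0.47 for Tnni3 and -1.05 for Nppa. Replicate 2 of 6 mg at 3 h was also low in all 5, with a mean of -0.56, while replicate 1 of that group was high in all 5, with 0.53. Animals of that dose and time thus stood near both ends of the order. Deviations are taken from the group's own mean, so every group has animals above and below it. The order therefore cannot show an effect of dose or time.

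**Figure D3:**
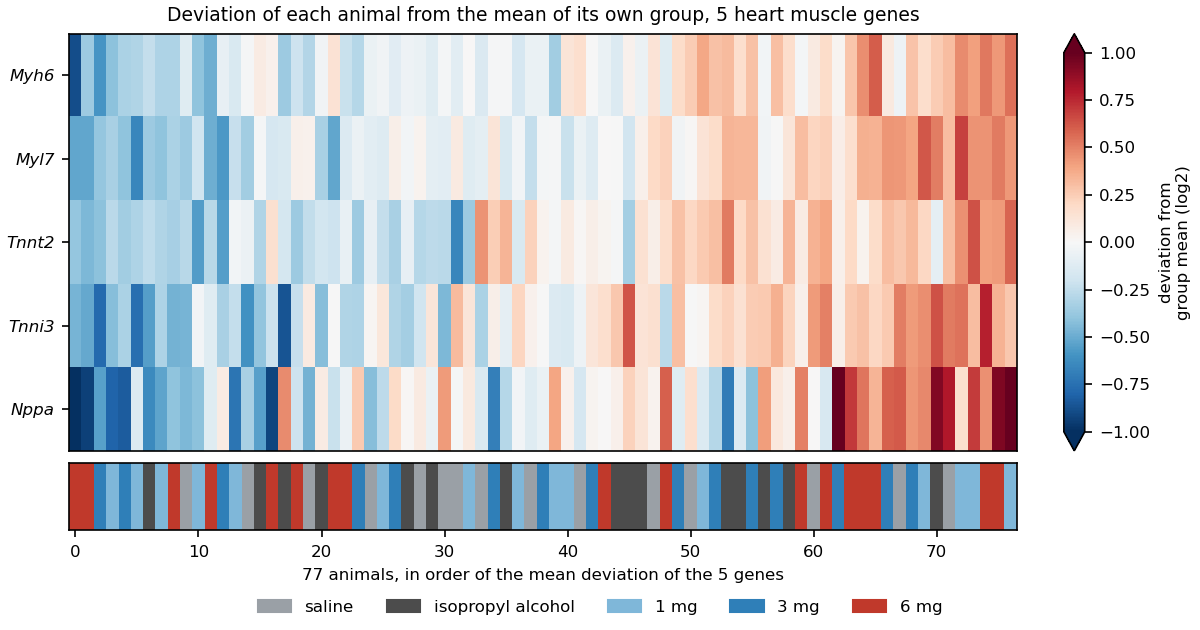
Deviation of each of 77 animals from its group mean (log2, red above and blue below) for the 5 genes, with animals ordered by the mean of the 5 and their dose in the strip below. The 5 rows shade from blue to red together, from a mean of -0.66 to 0.60. Every dose occurs along the strip, which follows from taking deviations from the group's own mean.

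The 20 genes most like the members were nearly all heart muscle genes. For every tested probe set with 1 gene, the deviations were correlated with the mean deviation of the 5 members over the 77 animals, as a description with no test. Of the top 20 genes, 18 were on 8 lists of other heart muscle genes that were compiled for this purpose. The lists were compiled with earlier results of these data known, so they are not independent of these values. Tnnc1, cardiac troponin C, the calcium sensor of the thin filament, led with r = 0.84. It was followed by Cox6a2 (0.77), the muscle form of a cytochrome oxidase subunit, and Ckmt2 (0.75), the mitochondrial creatine kinase of muscle. Next came Tpm1 (0.73), tropomyosin of the thin filament, Fabp3 (0.72), the fatty acid binding protein of heart muscle, Myoz2 (0.69), a Z-disc protein, and Atp2a2 (0.68), the calcium pump of the sarcoplasmic reticulum. The atrial genes Myl4 (0.68), the atrial essential light chain, and Sln (0.61), sarcolipin, an inhibitor of that pump, were also among them, as was Mb (0.64), myoglobin. The remaining list genes were Cox8b (0.60), Csrp3 (0.59), Hrc (0.57), Smpx (0.55), Mybpc3 (0.55), Actn2 (0.55), Myom2 (0.53) and Ttn (0.51), the last encoding titin, the molecular spring of the sarcomere. The other two were Immt (0.52), a protein of the inner mitochondrial membrane, and Slc25a4 (0.50), the mitochondrial exchanger of ADP and ATP. Over all 11106 probe sets the median r was -0.02, the 95th percentile 0.27 and the 99th percentile 0.38.

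The likeness differed between classes of heart muscle genes. Of 58 genes on the 8 lists, members left out, 49 had a probe set of their own and 36 were tested, with a median r of 0.47, and 29 had an r above 0. Among them 23 lay above the 95th percentile of all tested and 22 above the 99th. The medians were 0.61 for 2 thick filament genes, 0.39 for 2 thin filament genes (Tnnc1 and Tpm1, whose brightest probe set had -0.05), 0.53 for 9 genes of the Z-disc, M-band and giant proteins, 0.64 for 7 genes of energy and oxygen supply and 0.45 for 7 calcium handling genes. The 5 transcription factor genes had a median of 0.01 and the 4 genes of electrical conduction -0.09, and none of these 9 lay above the 95th percentile. Gja1 (0.04) and Gja5 (-0.02) encode connexins that heart muscle shares with other cells of the lung, and Mef2c (0.19), Tbx5 (0.09) and Gata4 (0.01) encode transcription factors.

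Probe sets of 1 gene did not always follow the members alike. Tpm1, which many cell types express in different splice forms, had 2 probe sets with r of 0.73 and 0.70 and another 2 with -0.05 each. Atp2a2 had 1 with 0.68 and others with -0.08 and -0.17, and Casq2, cardiac calsequestrin, had 1 with 0.45 and 1 with -0.16.

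The intensities of other heart genes are given gene by gene and are not compared with each other. A dim probe set need not mean a missing transcript, since the second Myh6 probe set averaged 10.4 where the first averaged 396. Myl2, the ventricular regulatory light chain, averaged 9.78 (5.75 to 24.5), below the lowest mean kept for testing, 36.1. Myh7, the beta myosin heavy chain, averaged 4.62, and Nppb, the gene of brain natriuretic peptide, averaged 7.54 (1.20 to 27.3). Neither of these separates ventricle from atrium, since the ventricle of the adult rat uses mainly the alpha myosin of Myh6 and atrial muscle also makes the peptide of Nppb. The ventricular light chain gene Myl3, which slow skeletal muscle also uses, averaged 22.1 and reached 245 in 1 animal. The atrial light chain gene Myl4 lay between 62.3 and 222, and Sln between 26.7 and 321.

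Lists of other tissues that a piece of lung could hold had medians from 0.00 to 0.27, at or below the 95th percentile of all probe sets. The median r with the members was 0.00 for 8 tested genes of skeletal muscle, 0.16 for 10 of smooth muscle, 0.27 for 5 of fat, 0.04 for 4 of thymus and T cells, 0.04 for 3 of red blood cells, 0.07 for 9 of lung epithelium and 0.19 for 5 of endothelium. Single genes lay above the 95th percentile: 2 of fat, 2 of lung epithelium (up to 0.35), 1 of endothelium (0.33) and 1 of smooth muscle (0.29). None of skeletal muscle, thymus and T cells or red blood cells did. The highest in the fat list was Fabp4 (0.38), the fatty acid binding protein of fat cells, and Ucp1 (0.27), the uncoupling protein of brown fat, was also positive. The part of fat or smooth muscle beside the veins in these values was not tested.

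**Figure D4:**
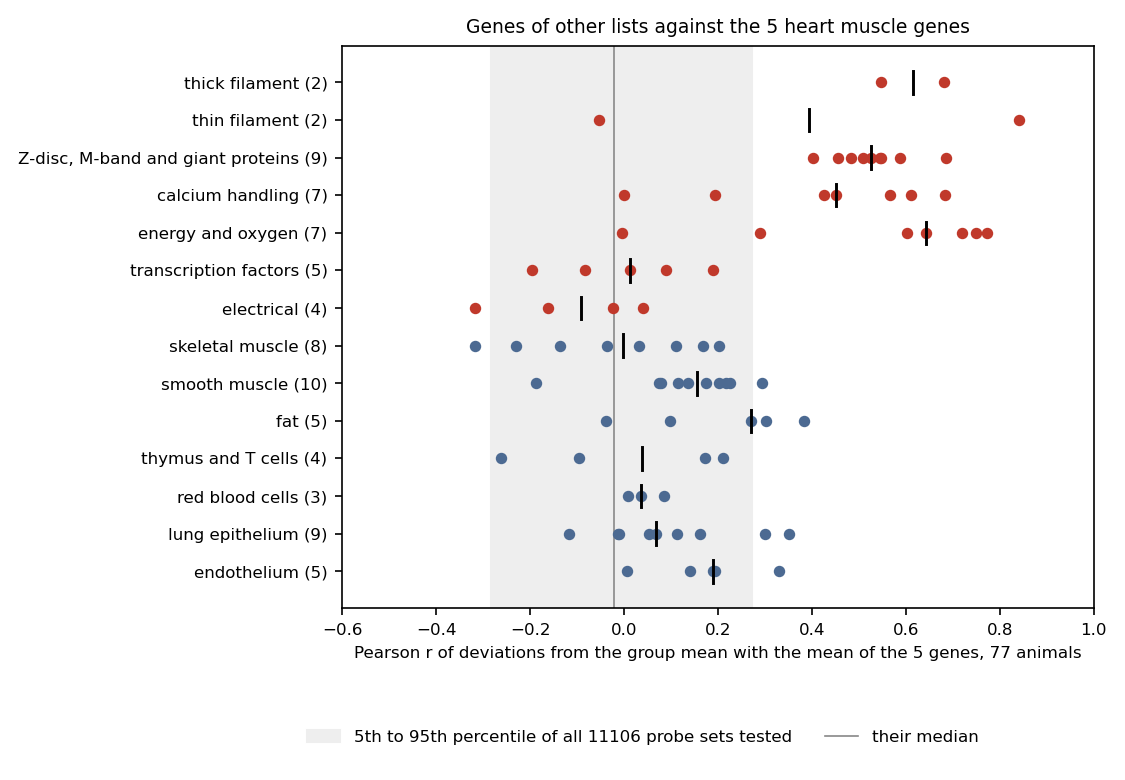
Pearson r, over 77 animals, of each list gene's deviations with the mean deviation of the 5 members; red points are heart muscle genes, blue points are genes of other tissues, black bars are list medians and the number of tested genes is in brackets. The grey band holds the middle 90% of all 11106 probe sets. Right of it lie 23 of 36 heart muscle genes and a few genes of fat, lung epithelium, endothelium and smooth muscle. Transcription factor and electrical genes lie within it or left of it.

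Skeletal muscle transcripts were high in few animals, and 1 of these was also an extreme of the members. Replicate 3 of isopropyl alcohol at 30 min had the highest Acta1, skeletal muscle actin, at 1843 against a median of 52.2 over the animals. It also had the highest Tnni2, fast skeletal troponin I, at 482 (median 35.3), and the highest Myl1, a fast skeletal light chain, at 657 (median 19.6). The same animal had the highest Nppa, 206, the highest value of each Acta2 and Actc1 probe set, and 39.0 in the dim second Myh6 probe set (median 6.65). Replicate 3 of 6 mg at 6 h had an Acta1 of 830, with members below their group means in Myh6 (300 against 541 and 318 in its group) and Myl7 (321 against 549 and 363).

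Measures of RNA and array quality were set against the members in 15 tests over the 77 animals. Only the deviations of Myh6 with the GAPDH ratio (signal at the 3' end over that at the 5' end of the control transcript, log2) passed, with r = 0.34 (rho 0.39, permutation p = 0.0028, adjusted p = 0.042), and r = 0.39 without the 2 farthest animals. Tnni3 with the same ratio had r = 0.31 (adjusted p = 0.063). With the array median the 5 genes had r between -0.33 and -0.05, with adjusted p values of 0.095 or more. With the 3' to 5' ratios of the control transcripts as covariates, every pair of members still correlated positively and passed the threshold of 0.05 after adjustment. The part of RNA quality in the shared movement was not tested further.

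The next question was whether dose or time moved these genes. Differences were tested with limma on log2(intensity + 7) in 1 model that fits the 25 group means, two-sided, with Benjamini-Hochberg adjustment over the 11106 probe sets and a threshold of 0.05. The labels do not say how animals were assigned, and the p values weigh differences between group means against the spread between these animals. The doses of a time share its isopropyl alcohol animals.

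Averaged over the 5 times, no member passed the test for 6 mg, while many other transcripts did. Of all probe sets, 30.4% passed for 6 mg against isopropyl alcohol, and 0 of the 5 members. Myh6 had a log2 change of -0.19 ± 0.12 (SE, 95% interval -0.43 to 0.04, limma adjusted p = 0.208) and Myl7 of -0.09 ± 0.13 (-0.34 to 0.17, adjusted p = 0.642). Tnnt2 had -0.02 ± 0.13 (-0.27 to 0.23), Tnni3 0.13 ± 0.15 (-0.17 to 0.43) and Nppa 0.11 ± 0.20 (-0.29 to 0.52). The median of the members was -0.02, and that of all tested probe sets was -0.03. Nppa had the widest of these intervals. With array weights in place of equal weights, Myh6 passed, with -0.32 (adjusted p = 0.0432), and no other member did.

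At the lower doses and for the vehicle no member passed either. With 3 mg, where 0.846% of all probe sets passed, the 5 changes lay between -0.02 (Myl7) and 0.25 ± 0.13 (Tnnt2, adjusted p = 0.524). With 1 mg, where 0% passed, they lay between -0.07 (Nppa) and 0.17 (Tnni3). Isopropyl alcohol against saline, where 0% passed, gave negative values for all 5, from -0.11 (Nppa and Tnni3) to -0.01 (Myl7), none larger than its standard error.

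**Figure D5:**
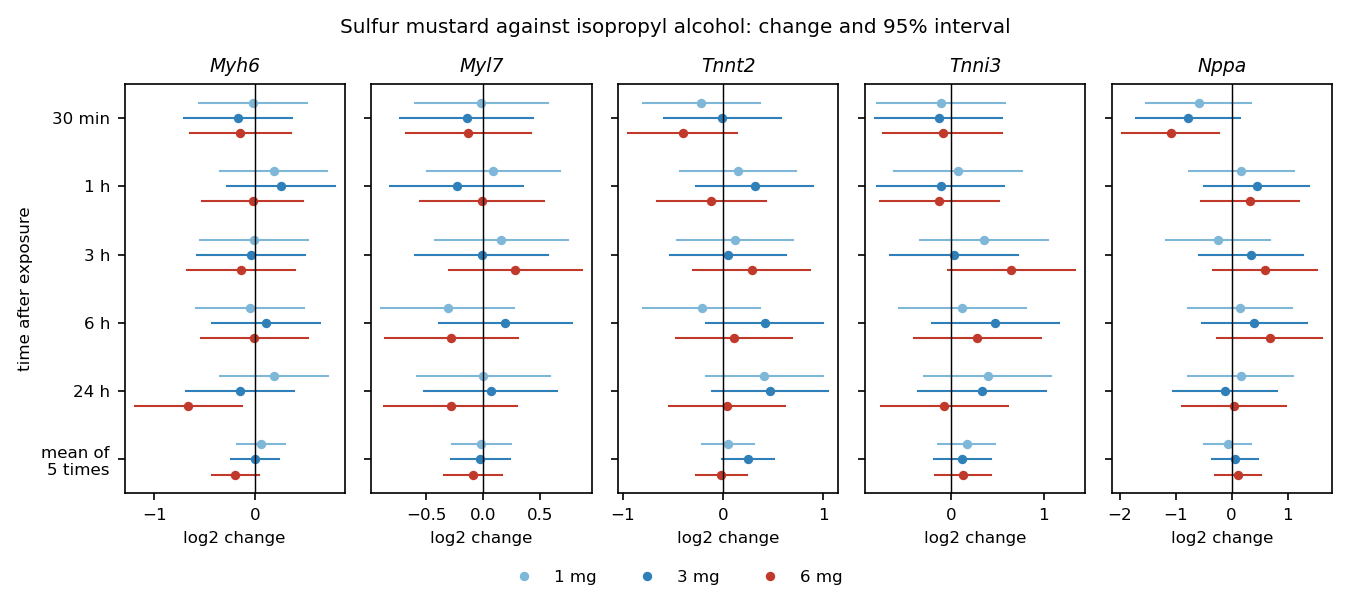
Log2 change of 1, 3 and 6 mg against isopropyl alcohol at each time and for the mean of the 5 times, with 95% intervals from limma, for the 5 genes. Most intervals cross 0; those of Myh6 for 6 mg at 24 h (-1.20 to -0.13) and Nppa for 6 mg at 30 min (-1.96 to -0.22) do not, but neither passed after adjustment.

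Within single times, 0 of 100 tests (5 genes in 20 comparisons) passed after adjustment, and 2 had an unadjusted p under 0.05. Over the 20 comparisons together, 8.17% of tests on all probe sets had an unadjusted p under 0.05. After adjustment, the share of all probe sets that passed for 6 mg was 0% at 30 min, 0.198% an hour after exposure, 13% at 3 h, 18.3% at 6 h and 6.74% on the next day. For 3 mg it was 0% up to 3 h, 1.69% at 6 h and 0.513% at 24 h. For 1 mg, 0% passed at 30 min and 1 h, while 3 h gave 0.018%, 6 h gave 0.009% and 24 h gave 0.333%. For isopropyl alcohol against saline, 30 min gave 0.036%, 3 h gave 0.009%, 6 h gave 0.018%, and the other two times gave 0%. With 6 mg at 3 h, 4 of the 5 members had positive values and the median was 0.28, with Tnni3 at 0.65 ± 0.34 (adjusted p = 0.226).

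Nppa at 30 min was 1 of the 2. It read 22.6, 70.5, 41.6 and 67.4 with 6 mg, and 86.9, 65.9 and 206 with isopropyl alcohol. The groups overlapped, and the highest vehicle animal is the one with the highest skeletal muscle transcripts. The log2 change was -1.09 ± 0.44 (limma adjusted p = 0.882), and without that vehicle animal it was -0.63 (adjusted p = 1.00).

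Myh6 at 24 h was the other, and gave the only call among the members with equal array weights. It read 376, 572 and 462 with saline, 454, 548 and 342 with isopropyl alcohol, 569, 404 and 550 with 1 mg, 374, 423 and 394 with 3 mg, and 146, 424 and 337 with 6 mg. One 6 mg animal stood far below all others, and the other two lay within or just under the range of the vehicle animals. The log2 change for 6 mg against isopropyl alcohol was -0.66 ± 0.27 (limma adjusted p = 0.145). A linear trend over isopropyl alcohol, 1, 3 and 6 mg passed at 24 h, with -0.13 ± 0.04 log2 units per mg (adjusted p = 0.0413), where 8.11% of all probe sets passed.

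That call rested largely on 1 animal. Without replicate 1 of 6 mg at 24 h the trend was -0.05 per mg (adjusted p = 0.631) and the change at 6 mg was -0.22 (adjusted p = 0.785). Without replicate 2 of that group the change was -0.97 (adjusted p = 0.0343), and with array weights it was -0.93 (adjusted p = 0.0258). The trend passed in 7 of 12 fits that each left out 1 animal, and it was lost without replicate 1 or 2 of isopropyl alcohol (adjusted p = 0.0857 and 0.14) and without replicate 1 or 3 of 1 mg (0.0724 and 0.0671). With scan days as a block it was -0.13 (adjusted p = 0.0594). Replicate 1 of 6 mg at 24 h was below its group mean in all 5 members, and the other members had trends at 24 h between -0.05 (Myl7) and -0.01 (Nppa and Tnnt2), with adjusted p values of 0.68 or more.

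The other 4 trends within a time passed for no member: the share of all probe sets that passed was 0% at 30 min, 0.486% after 1 h, 12.2% after 3 h and 20.4% after 6 h. In the F-test over the 25 groups, 49.2% of all probe sets passed and 0 of the 5 members, whose adjusted p values lay between 0.512 (Tnnt2) and 0.948 (Myl7). In F-tests over time alone, none of them passed in isopropyl alcohol animals, where 0.171% passed, or in saline animals, where 2.19% passed. Nppa came nearest, with an unadjusted p of 0.0515 (adjusted 0.427) in isopropyl alcohol animals. A pair of scan days held 13 animals, all from 30 min, and the other 30 min animals shared no pair with animals of 1, 3 or 6 h. The 30 min time and its scan batch therefore cannot be told apart, while the later times shared pairs of scan days. Whether the 6 mg effect differed between times was tested with an F-test in which 11.4% of all probe sets passed. Nppa had the smallest value among the members there, an adjusted p of 0.187 (unadjusted 0.0447), or 0.58 without replicate 3 of isopropyl alcohol at 30 min, and the other 4 had 0.65 or more.

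The shared probe set of Myh7 and Myh6 behaved much as Myh6 did, and went a little further at 24 h. Its deviations correlated with Myh6 at r = 0.76 and with Myl7 at r = 0.74 (rho 0.75 and 0.73, permutation p = 1e-05, adjusted over 20 tests 1e-04 for both). At 24 h it read 110, 145 and 101 with saline, 136, 146 and 91.2 with isopropyl alcohol, 139, 102 and 101 with 1 mg, 80.3, 117 and 117 with 3 mg, and 55.8, 85.8 and 74.7 with 6 mg. All 6 mg animals lay below all isopropyl alcohol animals, and the share of all probe sets so separated is not given here. The log2 change was -0.71 ± 0.23 (limma adjusted p = 0.0449), where 6.74% of all probe sets passed. The trend was -0.12 ± 0.04 per mg (adjusted p = 0.025), where 8.11% passed. Averaged over times 6 mg gave -0.29 ± 0.10 (adjusted p = 0.0246), where 30.4% passed. Without replicate 1 of 6 mg at 24 h these became -0.56 (adjusted p = 0.263), -0.09 (0.217) and -0.25 (0.053). With quantile normalization they became -0.62 (adjusted p = 0.143), -0.10 (0.0854) and -0.21 (0.137). The change at 24 h also failed on chip A alone (adjusted p = 0.118), on chip B alone (0.0756) and with no filter on dim probe sets (0.0624). It failed as well when the fit held the 24 h animals alone (0.0678). The trend failed on chip B alone (0.0681), and the mean over times on chip A alone (0.0976). Each of these calls was also lost without some other single animals.

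The 3 probe sets that name both Acta2 and Actc1 correlated with the heart muscle gene Myl7 and with Acta2, but not with every marker of either muscle. The brightest of them correlated with Myl7 at r = 0.54 (rho 0.53, adjusted p over 20 tests 0.00033), and with the probe set of Acta2 alone at 0.51 (rho 0.50, adjusted p = 0.0019). The other two had r of 0.36 with Myl7 and 0.43 and 0.42 with Acta2. With Myh6 the 3 had r of 0.31, 0.07 and 0.19, of which the first passed (adjusted p = 0.042, 0.72 and 0.21). With Myh11, smooth muscle myosin heavy chain, they had 0.03, -0.07 and -0.09 (adjusted p from 0.76 to 0.88), and with Tagln, a smooth muscle actin-binding protein, 0.36, 0.30 and 0.25, of which the first passed (adjusted p = 0.0093, 0.055 and 0.088). Unlike the members, all 3 passed the F-test over the 25 groups, with limma adjusted p values of 9.22e-06, 0.000166 and 6.16e-05. In that test 49.2% of all probe sets passed. At 24 h the brightest read 158, 236 and 257 with 6 mg, and 433, 433 and 241 with isopropyl alcohol, a log2 change of -0.74 ± 0.27 (adjusted p = 0.0964). Another read 37.6, 35.8 and 47.4 with 6 mg, and 102, 113 and 77.3 with isopropyl alcohol, so the groups did not overlap. The share of all probe sets so separated is not given here, and the log2 change was -1.12 ± 0.50 (adjusted p = 0.203). Among all probe sets 6.74% passed in this comparison. Of 10 smooth muscle genes 6 passed, all lower, Acta2 among them with a fall of 1.00 ± 0.25 (adjusted p = 0.00608). Which of the 2 actins these probe sets measured cannot be told apart, so no value is given for Actc1.

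Among the other heart muscle genes, those that followed the members were seldom called with 6 mg. Of the 23 whose r was above the 95th percentile, 2 passed for 6 mg averaged over times, both lower: Ttn fell by 0.32 ± 0.07 on the log2 scale (limma adjusted p = 0.000824) and Smpx, a small muscle protein, fell by 0.24 ± 0.08 (adjusted p = 0.0169). Of the 13 others, 6 passed, 1 higher and 5 lower. Gja1, connexin 43, rose by 0.35 ± 0.09 (adjusted p = 0.00174). Mef2c fell by 0.54 ± 0.09 (adjusted p = 1.28e-05), and Slc8a1, the sodium and calcium exchanger, fell by 0.43 ± 0.06 (adjusted p = 6.77e-07). Cacna1c, a calcium channel subunit, fell by 0.42 ± 0.07 (adjusted p = 1.49e-06). The 2 shares, 8.7% and 46.2%, stand beside the 30.4% of all probe sets, and the difference between them was not tested. The genes above the 95th percentile were picked by their values in these same animals. A wide spread between animals makes a change harder to call, so few calls do not show that these genes kept their level.

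Of the 20 genes most like the members, 3 passed for 6 mg averaged over times, where 30.4% of all probe sets passed. Ttn and Smpx were lower, and Immt rose by 0.17 ± 0.05 on the log2 scale (limma adjusted p = 0.00756). None of the first 8 in the order of likeness passed. Among these, Atp2a2 had the change largest against its error, -0.13 ± 0.06 (adjusted p = 0.102), and the others lay between -0.10 ± 0.09 (Fabp3) and 0.11 ± 0.11 (Cox6a2). The median of the 20 was -0.02. At 24 h, where 6.74% of all probe sets passed, 16 of the 20 had negative values, with a median of -0.26, and 2 passed. Ttn fell by 0.64 ± 0.17 (adjusted p = 0.0109) and Immt rose by 0.45 ± 0.11 (adjusted p = 0.0063). Atp2a2 had -0.40 ± 0.14 (adjusted p = 0.0649) and Myl4 -0.61 ± 0.33 (adjusted p = 0.342) at that time. Outside the 20, Pln, phospholamban, a regulator of the calcium pump, rose by 0.81 ± 0.22 at 24 h (adjusted p = 0.014).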

How the data were processed

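The authors deposited, per the file headers, 1 linear intensity per probe set and array of the RAE230A platform, already scaled to a common trimmed mean; the program that made the probe set values is not given in the sources used here. Probe sets were named from GEO's platform annotation (12783 with 1 gene, 312 with several, which name no gene here). Values of chips A and B were averaged per animal as log2(intensity + 7), the offset being the 10th percentile. The dimmest 30% and 57 control probe sets were left out, and 11106 were tested with limma 3.58.1 in R 4.3.3 (statmod 1.5.0) in a model of 25 group means. Correlations used 100000 permutations. The model was tested on simulated data.

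The members, the lists and the tests were chosen with earlier results of these data known. Named genes are the members, the 20 genes most like them and the brightest of each list. Others were added after their values were seen: those called with 6 mg, those whose probe sets disagree, other heart and skeletal markers, and Ucp1. Because Actc1 has no probe set of its own, 10 pairs of genes were correlated, not the planned 15. Alternatives were other offsets, filters, normalization, single chips, scan days as a block, 3' to 5' ratios as covariates, array weights, fits within a time and leaving out each animal. The number of animals limits the precision.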

Additional observations from a re-analysis of the deposited data

Results flagged for a closer look

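In 22 tests of the groups of 4 animals for 1 animal far from the others, 2 gave a result, and chance alone gives about 1 in 20. Tnnt2 read 59.1 in replicate 3 of 6 mg at 30 min, below the other 3 animals of its group (78.8 to 82.8). A probe set of Acta2 and Actc1 read 348.2 in replicate 4 of the same group, above the other 3 animals (208 to 218).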

How the results depend on the processing

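The members' calls were few under every alternative. Array weights gave 1 call for 6 mg averaged over times (Myh6, -0.32, limma adjusted p = 0.0432) and 1 among the 20 comparisons within a time, against 0 for both as reported. The 1 call among the dose trends became 0 with no filter on dim probe sets (adjusted p = 0.0574), on chip A alone (0.154), with scan days as a block (0.0594) and when the fit held the 24 h animals alone (0.135). Leaving out each animal in turn gave 0 to 1 calls among the trends, 0 to 1 among the 20 comparisons, and 0 for the means over times and the F-tests. The median correlation, 0.64 as reported, was 0.53 on chip A alone, 0.52 on chip B alone, 0.41 in the saline and isopropyl alcohol animals alone and 0.56 across chips, the last chosen after seeing the data. Without each animal it lay between 0.62 and 0.67. With each animal left out in turn, the median SD between animals, 0.37, lay between 0.36 and 0.37. SDs of single genes moved more with the offset and the normalization. With an offset of 32 the SD was 0.29 for Tnnt2, 0.35 for Tnni3 and 0.43 for Nppa, against 0.36, 0.43 and 0.59 as reported. With an offset of 1 it was 0.66 for Nppa, and with quantile normalization it was 0.40 for Tnnt2. With the dimmest 50% left out Nppa was not tested. The causes were not tested. No paired analysis was possible because replicate numbers were given only in accession order. Nppa and Tnnt2 are limited by disagreement between chips.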
